A study of Rattus norvegicus with 48 samples.

Results

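Acsm5, Ces1e, Rdh16, Abcb10 and Cryz are 5 metabolic genes whose kidney RNA differed widely between rat strains. They were chosen by that difference, seen earlier in the same arrays, so their strain values are given as a description without a test. Their members are the probe sets that the platform annotation gives to these symbols or to older ones (Es22 for Ces1e and Rdh2 for Rdh16). This gave 80 probe sets of 85406 with 1 gene symbol, and 5 genes of 7997. Acsm5, on chromosome 1, was read by 18 probe sets, Ces1e, on chromosome 19, by 23, Rdh16, on chromosome 7, by 9, Abcb10, on chromosome 19, by 21 and Cryz, on chromosome 2, by 9.

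Kidney RNA of male rats of 4 strains, called F, L, FL and LF, was measured on 48 exon arrays, 4 for each of 12 groups. At day 0 the animals had received vegetable oil, and at days 7 and 10 indole-3-carbinol, found in cabbages and a source of ligands of the aryl hydrocarbon receptor, at 100 mg/kg/day by gavage. Animals were 12 to 14 weeks old, with 8 rats stated per group, and neither the meaning of the strain names nor the number of rats per array is labelled. No group had oil at days 7 and 10, so the compound and the days of gavage or collection cannot be told apart. From knowledge outside the labels, the compound served to switch on a transgene under the Cyp1a1 promoter. Whether all groups carried it is not given in the labels.

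The 5 genes belong to separate pathways. Acsm5 encodes a mitochondrial enzyme of the medium-chain acyl-CoA synthetase family, which joins medium-chain fatty acids to coenzyme A. Ces1e encodes a carboxylesterase, a family of enzymes that cleave ester bonds in lipids and drugs. Rdh16 encodes a microsomal retinol dehydrogenase, which takes part in the oxidation of retinol and of some steroids. Abcb10 encodes a transporter of the inner mitochondrial membrane that is needed for normal heme production in red cell precursors. Cryz encodes zeta-crystallin, a quinone reductase that also binds RNA, and in the proximal tubule it is known to bind the glutaminase messenger during acidosis.

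RefSeq promoter windows (build GRCr8, 250 bases before to 50 after the start) matched 4 of the 5 genes. The windows of Acsm5 (chr1:183302259-183302558, plus strand) and Ces1e (chr19:30005923-30006222, plus strand) are shown because Acsm5 had the widest strain difference of the 5 and Ces1e the widest response by day. Capitals mark GCGTG, the core bound by the aryl hydrocarbon receptor, or its reverse complement CACGC.
Acsm5: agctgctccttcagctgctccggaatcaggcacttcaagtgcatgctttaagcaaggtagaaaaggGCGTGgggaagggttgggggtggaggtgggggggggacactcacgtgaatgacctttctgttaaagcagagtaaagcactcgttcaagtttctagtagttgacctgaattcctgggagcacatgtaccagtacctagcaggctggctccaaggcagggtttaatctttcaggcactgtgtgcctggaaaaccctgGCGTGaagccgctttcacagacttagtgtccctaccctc
Ces1e: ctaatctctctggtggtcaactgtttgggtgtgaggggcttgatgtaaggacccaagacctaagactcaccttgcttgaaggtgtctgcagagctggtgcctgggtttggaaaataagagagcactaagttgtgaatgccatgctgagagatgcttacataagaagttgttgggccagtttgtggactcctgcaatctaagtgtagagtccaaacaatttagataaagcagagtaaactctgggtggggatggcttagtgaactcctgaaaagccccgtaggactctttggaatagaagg
The Acsm5 window held 2 copies and the Abcb10 window 1, while those of Ces1e and Cryz held 0. A copy on either strand was present in 29.7% of the 33469 windows in the table.

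The strain difference ran the same way at every day. Acsm5, Ces1e, Rdh16 and Abcb10 were lower in F and FL than in L and LF, and Cryz was higher in F and FL. Averaged over the 3 days, F minus L was -2.36 ± 0.06 for Acsm5 on the log2 scale (limma SE, 4 arrays in each of 12 groups), so that L was 5.12-fold above F. The log2 difference was -1.80 ± 0.11 for Ces1e (3.48-fold higher in L), -1.44 ± 0.09 for Rdh16 (2.72-fold) and -1.16 ± 0.08 for Abcb10 (2.24-fold). For Cryz it was 0.67 ± 0.05, with F 1.59-fold above L. Among the 7997 genes these differences ranked 5, 8, 15, 26 and 89 by size. The median size over all genes was 0.083 and the highest 1% began at 0.70. For comparison, 7.03% of all genes passed the limma test in F minus L, which the choice of these genes used.

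Acsm5 values are gene values, the Tukey median polish of log2 intensities over the gene's probe sets. In strain F they were 5.68, 5.67, 5.22 and 5.65 at day 0 for replicates 1 to 4, 5.64, 5.57, 5.80 and 5.54 at day 7, and 5.65, 5.15, 5.54 and 5.46 at day 10. Strain FL gave 5.45, 5.28, 5.14 and 5.34 at day 0, 5.57, 5.60, 5.32 and 5.45 at day 7, and 5.73, 5.58, 5.72 and 5.49 at day 10. Arrays of F and FL thus overlapped at each day and none reached 6. Strain L gave 8.09, 7.89, 8.09 and 7.75 at day 0, 7.96, 7.73, 7.78 and 7.81 at day 7, and 7.85, 7.89, 7.86 and 8.16 at day 10. In strain LF the values were 7.78, 8.09, 7.92 and 7.82 at day 0, 7.78, 7.59, 7.56 and 7.62 at day 7, and 7.80, 7.69, 7.93 and 7.60 at day 10. The highest of the 24 arrays of F and FL (5.80) lay 1.76 below the lowest of the 24 of L and LF (7.56), the widest gap of the 5 genes. In the order of the 12 group means, the only neighbours of Acsm5 without overlapping arrays were F at day 7 (5.64 ± 0.12, SD, n = 4) and LF at day 7 (7.64 ± 0.10).

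**Figure D1:**
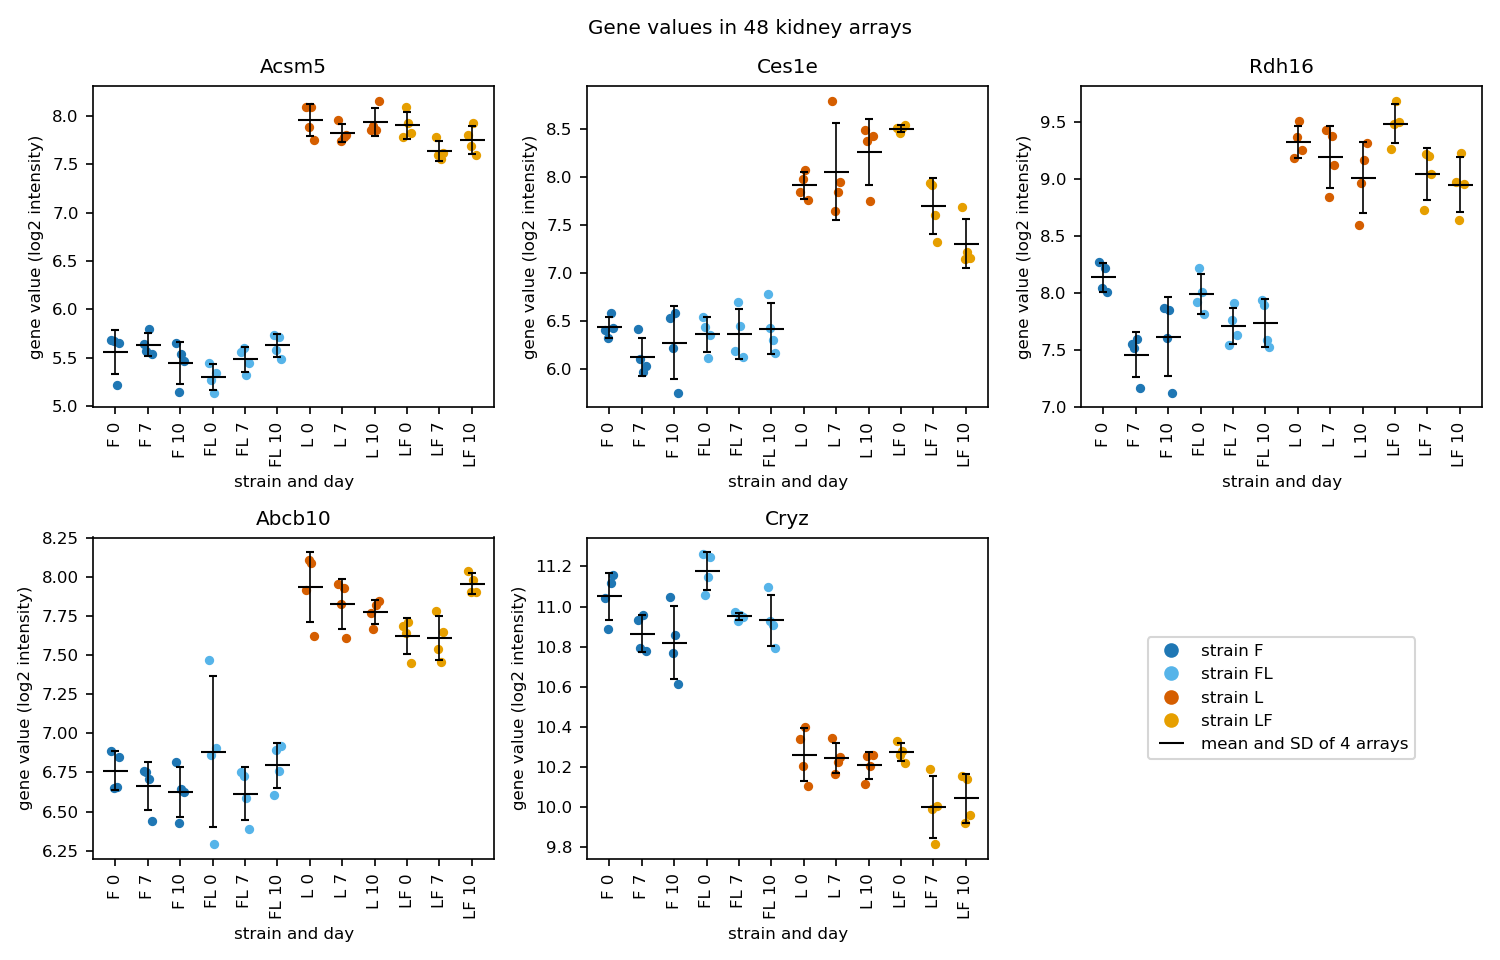
Gene values (log2 intensity, vertical axis, not starting at 0) of the 5 genes by strain and day, with 1 point per array and a bar for the mean and SD of 4 arrays. F and FL arrays lie below L and LF arrays for Acsm5, Ces1e and Rdh16 and above them for Cryz; for Abcb10, 1 FL array at 7.47 meets the LF range.

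Ces1e was lower in F and FL, where the 24 arrays ran from 5.76 through a median of 6.38 to 6.78. In L and LF they ran from 7.15 through 7.93 to 8.80, so the 2 sets were 0.37 apart. Rdh16 ran from 7.13 through 7.84 to 8.27 in F and FL and from 8.60 through 9.21 to 9.69 in L and LF, a gap of 0.33. Cryz ran from 10.61 through 10.95 to 11.26 in F and FL and from 9.82 through 10.21 to 10.40 in L and LF, with a gap of 0.22 the other way. Abcb10 ran from 6.29 through 6.74 to 7.47 in F and FL and from 7.45 through 7.80 to 8.11 in L and LF. Its sets overlapped by 1 array, FL day 0 replicate 1 at 7.47, with the next highest of F and FL at 6.92. The other FL day 0 arrays read 6.86, 6.29 and 6.91 for Abcb10, and the group SD of 0.48 was the widest of its 12 groups. Of all 7997 genes, 17 (0.213%) had such non-overlapping sets, 4 of the 5 genes among them.

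FL lay near F and LF near L. FL minus F, as a mean of days, was between -0.08 and 0.11 for the 5 genes, and LF minus L between -0.24 and -0.02. The widest of these, Ces1e at -0.24 ± 0.11, was a mean of unlike days: at days 0, 7 and 10 LF minus L was 0.59, -0.36 and -0.95. FL minus LF gave the same signs as F minus L, with -2.29 ± 0.06 for Acsm5, -1.45 ± 0.11 for Ces1e, -1.35 ± 0.09 for Rdh16, -0.96 ± 0.08 for Abcb10 and 0.91 ± 0.05 for Cryz.

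Most probe sets of each gene carried the strain difference, although not equally. A gene was counted as differing in most of its probe sets where over 50% of them differed by at least 0.5 on the log2 scale in 1 direction. All 5 genes met this, as did 142 of the 7001 genes with 3 or more probe sets (2.03%). All 18 probe sets of Acsm5 were lower in F than in L, from -4.33 ± 0.27 at probe set 6189931 (means 5.31 in F and 9.64 in L) to -0.65 ± 0.20 at probe set 6505371 (4.14 and 4.79). In 16 of the 18 the 24 arrays of F and FL did not overlap the 24 of L and LF, against 0.244% of all 92401 probe sets. Cryz was as even, with all 9 probe sets higher in F, 8 of them by 0.51 to 0.88 and probe set 6344707 by 0.31 ± 0.08. FL minus LF had the sign of F minus L in all 18 probe sets of Acsm5 and all 9 of Cryz.

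Ces1e fell into 2 sets of probe sets. In 15 of the 23, F minus L was -4.13 to -1.13 on the log2 scale, lowest at probe set 5831621 (means of 3.11, 7.24, 3.48 and 6.83 for F, L, FL and LF). In the other 8 the difference was -0.35 to -0.06, as at probe set 6689097 (11.2, 11.4, 11.1 and 11.3). The -0.06 was at probe set 6172459, which was dim, with a mean over all arrays of 2.50. Its F minus L was -0.85 ± 0.51 at day 0 and 1.09 ± 0.51 at day 10. None of the 23 lay between 0.5 and 1. With only the Ces1e probe sets at or above the median level of all probe sets, F minus L of the gene was -0.99 instead of -1.80. Carboxylesterase genes are near copies of each other, and which exon or copy a probe set reads was not tested. Rdh16 had 6 probe sets at -2.88 to -1.28 in F minus L and 3 at -0.27 to -0.03. The 6 included probe set 6118065 (means 5.11, 7.99, 5.22 and 8.08 in the same order), and the 3 included probe set 6730354 (6.93, 7.08, 6.97 and 7.11). Probe sets 6002769 and 6158828, also among the 3, were dim, with means over all arrays of 2.88 and 4.36. In Abcb10, 14 of 21 probe sets were lower in F by 1 or more and 5 by 0.5 to 1. Probe set 6274014 differed by -0.45 ± 0.08, and probe set 5807833 was alone in the other direction at 0.12 ± 0.13.

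**Figure D2:**
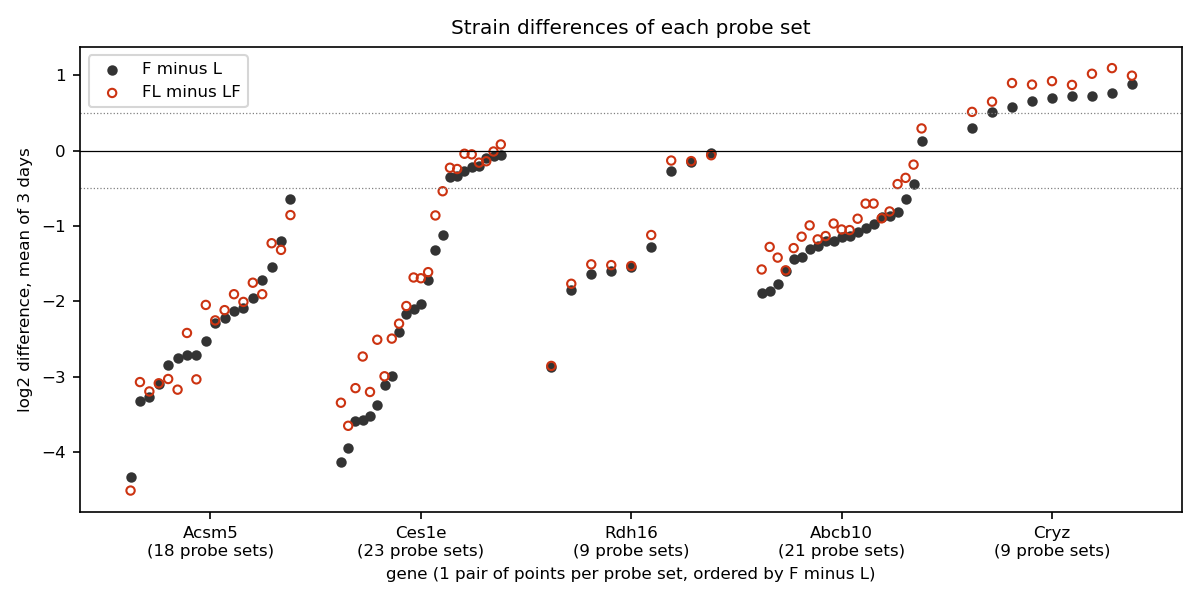
Log2 differences of each probe set as a mean of 3 days (vertical axis), filled points for F minus L and open points for FL minus LF, ordered within each gene by F minus L; dotted lines mark 0.5 in either direction. Acsm5 and Cryz lie on 1 side of 0 throughout. In F minus L, 8 Ces1e, 3 Rdh16, 2 Abcb10 and 1 Cryz probe sets lie within the dotted lines.

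The responses by day were not used to choose the genes and were tested. Against day 0, as means of the 4 strains, Rdh16 and Cryz fell at both days, and Ces1e, Acsm5 and Abcb10 did not pass the test. Within single strains Ces1e fell in LF at both days and Rdh16 fell in F at day 7. Where treated arrays are said below not to overlap day 0 within a strain, the share of all genes so separated was not counted. Such separations are a description. Of all 7997 genes, 3.88% were called lower and 1.10% higher at day 7, and 1.06% lower and 1.24% higher at day 10. The day 7 calls were 88 higher and 310 lower, against 155 and 739 when replicate number entered as a block and 289 and 314 after quantile normalization of the arrays.

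Rdh16, the retinol dehydrogenase, fell by 0.38 ± 0.08 at day 7 (limma SE, adjusted p = 0.00177) and by 0.41 ± 0.08 at day 10 (adjusted p = 0.000982) on the log2 scale. In strain F its arrays read 8.27, 8.05, 8.22 and 8.01 at day 0, 7.55, 7.52, 7.60 and 7.17 at day 7, and 7.87, 7.61, 7.86 and 7.13 at day 10. All F arrays at days 7 and 10 thus lay below all 4 at day 0. Strain LF gave 9.27, 9.49, 9.69 and 9.50, then 8.73, 9.22, 9.20 and 9.05, then 8.98, 8.64, 9.24 and 8.96, again with no overlap with day 0. Strain L read 9.18, 9.37, 9.51 and 9.26 at day 0, 9.44, 8.85, 9.38 and 9.12 at day 7, and 8.60, 8.97, 9.17 and 9.32 at day 10, so that its days overlapped. Strain FL read 7.92, 8.22, 8.01 and 7.81, then 7.55, 7.76, 7.91 and 7.63, then 7.94, 7.90, 7.59 and 7.52, and its days overlapped too. The log2 change passed within a strain in F at day 7 (-0.68 ± 0.16, adjusted p = 0.0188), where 0.25% of genes were called lower. That call was lost without F day 0 replicate 1 (adjusted p = 0.097), F day 0 replicate 3 (0.0796) or F day 7 replicate 4 (0.134). At day 7 the change was -0.44 in LF, -0.28 in FL and -0.13 in L, and at day 10 it was -0.52 in F, -0.53 in LF, -0.25 in FL and -0.31 in L, all with an adjusted p over 0.1. The change did not differ past the test between strains (interaction F test, adjusted p = 0.943). Without LF in the mean, Rdh16 still fell, by 0.36 at both days (adjusted p = 0.0341 and 0.0293).

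Cryz fell by 0.17 ± 0.04 at day 7 (limma SE, adjusted p = 0.0119) and by 0.19 ± 0.04 at day 10 (adjusted p = 0.00881). Its day 7 change on the log2 scale was -0.19 for F, -0.23 for FL, -0.27 for LF and -0.01 for L, and at day 10 it was -0.23, -0.25, -0.23 and -0.05. Strain LF read 10.33, 10.26, 10.28 and 10.22 at day 0, 10.19, 9.99, 9.82 and 10.01 at day 7 and 10.16, 9.92, 10.14 and 9.96 at day 10, so that every treated LF array lay below the day 0 arrays. In strain L the arrays of the 3 days overlapped, from 10.11 to 10.40. No single strain passed the limma test. With the replicate number as a block, LF at day 7 did (-0.27, adjusted p = 0.0239 against 0.0883), and it did without LF day 7 replicate 1 (-0.34, adjusted p = 0.0397). Without LF in the mean, both calls were lost (-0.14 with adjusted p = 0.246, and -0.18 with 0.0937). The interaction test gave an adjusted p of 0.949. Over the 48 arrays, deviations from group means correlated with the array median at r = 0.63 for Cryz, 0.52 for Ces1e and 0.31 for Rdh16, with arrays shared by all 3. The part of the array median in these falls was not tested beyond the quantile normalization, after which Cryz changed by -0.14 and -0.19 and Rdh16 by -0.33 and -0.40, all still past the test.

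Markers of kidney tubule segments were read at the same days as means of strains. At day 7, where 3.88% of all genes were called lower, 5 of 6 loop and distal tubule markers fell (median -0.26), as did 2 of 4 collecting duct (median -0.25) and 3 of 11 proximal tubule markers (median -0.07). At day 10, where 1.06% of all genes were called lower, 3 of 6 loop and distal tubule markers fell (median -0.22), 1 of 4 collecting duct (median -0.23) and 0 of 11 proximal tubule markers (median -0.02). Outside the tubule, 1 of 1 endothelium, 1 of 4 podocyte and 1 of 4 macrophage and monocyte markers were called lower at day 7. Of 3 red cell markers 1 was called higher there, beside 1.10% of all genes. In strain F the loop and distal tubule list averaged 10.54 to 10.69 per array at day 0, 9.88 to 10.32 at day 7 and 9.97 to 10.29 at day 10. In LF it averaged 10.30 to 10.58, then 9.94 to 10.19, then 10.00 to 10.23. For L the ranges were 10.29 to 10.63, 10.15 to 10.32 and 10.35 to 10.42, and for FL 10.22 to 10.55, 9.99 to 10.28 and 9.82 to 10.49, so that day 0 overlapped both later days in these strains. Their part in the falls of Rdh16 and Cryz was not tested.

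**Figure D3:**
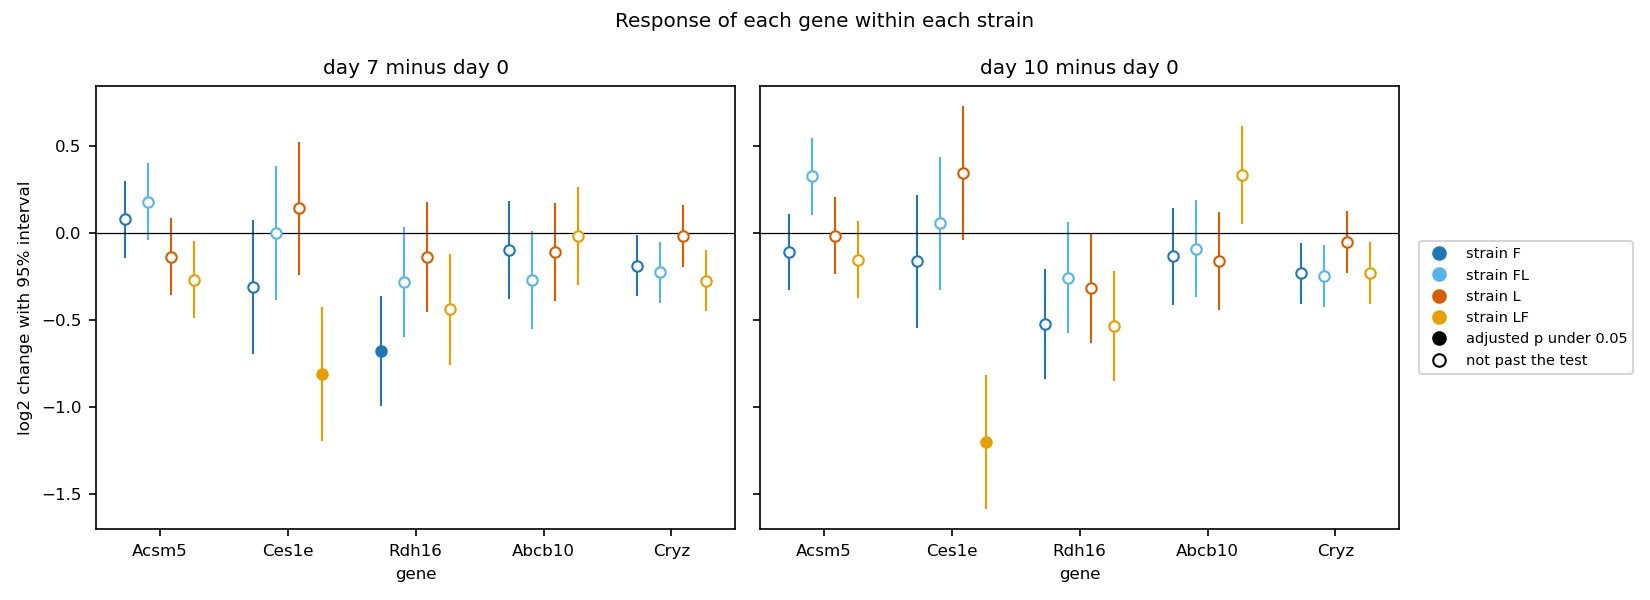
Log2 change from day 0 of each gene within each strain (vertical axis), at day 7 on the left and day 10 on the right, with 95% intervals from the limma model and filled points for an adjusted p under 0.05. The filled points are Ces1e in LF at both days and Rdh16 in F at day 7.

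Ces1e, the carboxylesterase, fell in LF and did not pass in any other strain. Its LF arrays read 8.51, 8.46, 8.51 and 8.55 at day 0, 7.94, 7.92, 7.60 and 7.33 at day 7, and 7.69, 7.15, 7.23 and 7.16 at day 10. All treated LF arrays lay below the day 0 arrays, whose SD of 0.03 was the narrowest of the 12 groups. The log2 change was -0.81 ± 0.19 at day 7 (adjusted p = 0.0136), where 2.05% of genes were called lower in LF. At day 10 it was -1.20 ± 0.19 (adjusted p = 0.000113), with 0.363% of genes called lower. The day 7 call was lost without LF day 7 replicate 4 (-0.69, adjusted p = 0.0607), while the day 10 call passed in all 8 fits that left out 1 LF array of those days. At day 10 LF remained above F and FL, since its lowest array (7.15) exceeded the highest of those strains (6.78).

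Strain L, 0.59 below LF at day 0, showed no such fall of Ces1e. Its arrays read 7.84, 7.98, 8.08 and 7.76 at day 0, 8.80, 7.65, 7.84 and 7.95 at day 7, and 8.49, 8.38, 7.75 and 8.43 at day 10. At day 7 only replicate 1 stood above the day 0 range, and at day 10 replicates 1, 2 and 4 did. The log2 change in L was 0.14 at day 7 and 0.35 ± 0.19 at day 10, short of the test. The day 10 change in LF minus that in L was -1.55 ± 0.27 (adjusted p = 0.00778, against 0.0637 for FL minus LF at 1.26 ± 0.27). The share of all genes called in these contrasts is not given here. Within the 4 replicate numbers the LF minus L value ran from -2.05 to -0.96. Any pairing of these same arrays would give negative values, so this adds no support. F read 6.41, 6.33, 6.59 and 6.42 at day 0, 6.42, 6.10, 5.97 and 6.03 at day 7, and 6.54, 6.22, 6.59 and 5.76 at day 10. FL read 6.54, 6.44, 6.12 and 6.36, then 6.19, 6.70, 6.45 and 6.12, then 6.78, 6.43, 6.31 and 6.17. Neither F nor FL separated its days.

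Ces1e was the only one of the 5 genes to pass the interaction test of strain and day (adjusted p = 0.0382), which called 16 of 7997 genes (0.2%). A model blocked on replicate number called 28, Ces1e included (adjusted p = 0.00669). The Ces1e call was not stable to single arrays: it passed in 30 of the 48 fits that left out 1. It was lost, with an adjusted p of 0.0507 to 0.115, without any 1 of L day 0 replicates 1, 2 and 4, L day 10 replicates 1, 2 and 4, FL day 0 replicates 2 and 3, FL day 7 replicate 3, FL day 10 replicate 2, the LF day 0 replicates 1 to 4, LF day 7 replicate 3 and LF day 10 replicates 2 to 4. As a mean of the 4 strains Ces1e changed by -0.24 at both days (adjusted p = 0.131 and 0.279). That mean passed with the plain mean of probe sets in place of the median polish (-0.33 with adjusted p = 0.00898, and -0.31 with 0.0261) and at day 7 without L day 7 replicate 1 (-0.31, adjusted p = 0.0254).

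All 23 Ces1e probe sets were lower in LF at day 10 than at day 0, by more in those that differed between strains. This split used F minus L, for which the gene was chosen, and probe sets of 1 gene are not replicates. The 2 sets also differed in level, with means of 3.89 to 9.73 in the 15 and 2.50 to 11.9 in the 8. The part of level in the split was not tested. Of the 15 that differed by 1 or more in F minus L, 9 were called lower in LF at day 10, with changes from -2.49 to -1.10 and a median of -1.48 over the 15, against 0.0703% of all probe sets called lower there. Of the 8 that differed by under 0.5, none was called, and their changes were -0.41 to -0.19. Over days 0, 7 and 10 the median level of the 15 in LF was 8.46, 7.54 and 7.12, and in L it was 7.97, 7.58 and 8.20. The median of the 8 was 10.9, 10.6 and 10.6 in LF and 10.7, 10.7 and 10.8 in L. A test of unequal change between probe sets of the gene (limma diffSplice) was not past the threshold for Ces1e in LF at day 10 (adjusted p = 0.340).

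**Figure D4:**
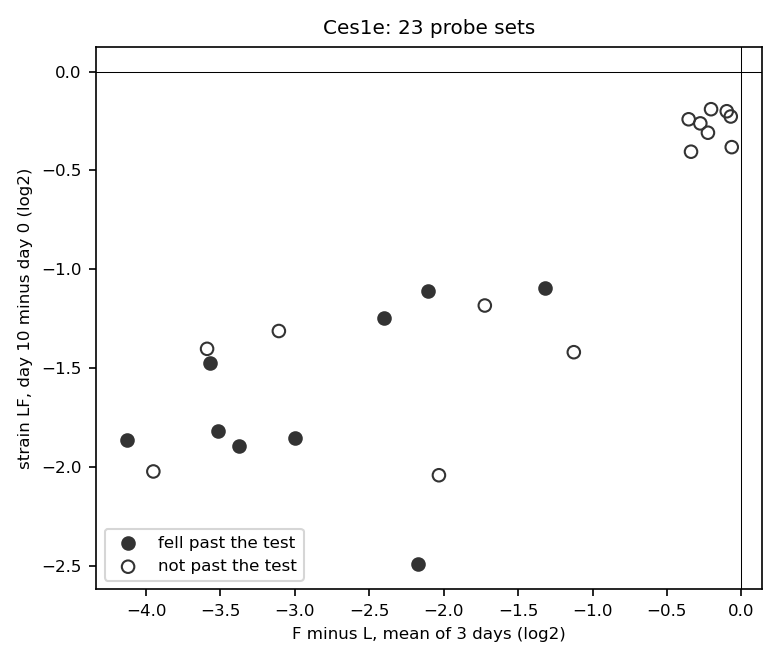
The 23 Ces1e probe sets by F minus L as a mean of 3 days (horizontal axis, log2) and by the change in LF from day 0 to day 10 (vertical axis, log2), filled where the fall passed the limma test. The 8 probe sets with small strain differences changed by -0.41 to -0.19, and the 15 others by -2.49 to -1.10.

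Acsm5 and Abcb10 did not pass the tests of days 7 and 10. As a mean of strains Acsm5 changed by -0.04 and 0.01 at days 7 and 10 (limma adjusted p = 0.746 and 0.997) and Abcb10 by -0.12 and -0.01 (0.313 and 0.997). Abcb10 in LF read 7.69, 7.64, 7.71 and 7.45 at day 0 and 8.04, 7.90, 7.98 and 7.90 at day 10. The latter all lay above the former, with a log2 change of 0.33 ± 0.14 that was short of the test (adjusted p = 0.511). Acsm5 in FL at day 10 lay above day 0 in all 4 arrays, by 0.33 ± 0.11 (adjusted p = 0.653). Use of probe sets within a gene differed from day 0 at day 7 for Cryz (limma diffSplice, adjusted p = 0.0049) and Abcb10 (0.0417), as it did for 11.9% of genes tested. In Cryz, probe set 5718194 fell by 0.56 ± 0.12 and probe set 6082337 changed by -0.07 ± 0.07. In Abcb10, probe set 5676293 changed by -0.63 ± 0.21 and probe set 5807833 by 0.20 ± 0.11, neither past the test on its own.

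Other genes of the same pathways were read in F minus L (7.03% of all genes called) and in FL minus LF (10.8% called). Of 3 other medium-chain acyl-CoA synthetases measured, Acsm3 was higher in F than in L (0.72 ± 0.12, limma adjusted p = 4.43e-05) and in FL than in LF (0.56, adjusted p = 0.00128), opposite to Acsm5. Acsm2 differed by -0.17 in F minus L, short of the test, and was lower in FL than in LF (-0.20, adjusted p = 0.0251). Of 4 other carboxylesterases and esterases 0 passed in F minus L, with Ces1d at -0.09 ± 0.09, and in FL minus LF Aadac, an esterase, was lower (-0.30, adjusted p = 0.00578). Of 15 other retinoid genes 1 was lower in F than in L, Rdh7, a retinol dehydrogenase (-0.41 ± 0.07, adjusted p = 8.05e-05), while in FL minus LF 5 were lower and 1 higher. Those 5 included Rdh7 (-0.23, adjusted p = 0.0316), Dhrs7, a short-chain dehydrogenase (-0.24, adjusted p = 0.0387), and Aldh1a2, which makes retinoic acid (-0.21, adjusted p = 0.0349). Of 6 genes of mitochondrial ABC transport and heme synthesis 0 passed in either comparison. Of 10 quinone and medium-chain reductases 1 passed in each: Akr7a3, an aldehyde reductase, in F minus L (-0.49 ± 0.08, adjusted p = 6.08e-05) and Ptgr1, a prostaglandin reductase, in FL minus LF (-0.36, adjusted p = 0.00861). Median differences of these lists lay between -0.08 and 0.05 in F minus L, beside -0.02 for all genes, and between -0.12 and 0.05 in FL minus LF, beside -0.03. At day 7, where 3.88% of all genes were called lower and 1.10% higher, 2 of the 3 acyl-CoA synthetases fell, and 1 of the 15 retinoid genes rose and 1 fell. The other 3 lists had 0 calls at day 7, and all 5 had 0 at day 10, where 1.06% of all genes were called lower and 1.24% higher.

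The nearest measured genes on the chromosomes, 2 on each side of each gene, were read as context. Of these 20 genes 1 was called higher and 4 lower in F minus L, against 7.03% of all genes called, with a median of -0.02. In FL minus LF 2 were called higher and 4 lower, against 10.8% of all genes. Beside Rdh16, Rdh7 was lower in both comparisons, as were Acadm (-0.26 in F minus L and -0.31 in FL minus LF) and Fpgt (-0.45 and -0.50) beside Cryz, which itself was higher in F and FL. Tnni3k beside Cryz was called lower in F minus L (-0.21), and in FL minus LF it differed by -0.17 (adjusted p = 0.0742). Hmox1 before Ces1e was called higher in F minus L (1.70 ± 0.51) but differed by 0.24 at day 0 and by -0.68 in FL minus LF (adjusted p = 0.44). Beside Acsm5, Acsm2 and Pdilt (0.19, adjusted p = 0.0159) were called in FL minus LF, as was Acta1 (0.18, adjusted p = 0.014) beside Abcb10, and none of the 3 passed in F minus L.

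The genes whose 12 group means followed each gene most closely are given by Pearson's r over those means, which all share the split between strains. For Acsm5 they were Cyp2d2 (r = 0.994), Cyp2d5 (0.991) and Gstt1 (0.983). For Ces1e they were Qprt (0.985), Gas2 (0.966) and Cyp2c11 (0.966), and for Rdh16 Stom (0.986), Cyp2c11 (0.983) and Acadsb (0.981). For Abcb10 they were Erc2 (0.988), Arhgap8 (0.981) and Cyp2d5 (0.974), and for Cryz Agxt2 (0.981), Tmlhe (0.979) and Tinag (0.977). Of these genes only Agxt2 lay on the chromosome of the gene it followed, Cryz on chromosome 2.

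Array medians lay between 6.03 and 6.61 and correlations between arrays between 0.926 and 0.979, with no 2 arrays identical. Means of the array median at days 0, 7 and 10 were 6.42, 6.23 and 6.44 in LF and 6.42, 6.32 and 6.44 in L. In F they were 6.37, 6.37 and 6.27, and in FL 6.32, 6.20 and 6.34. The first principal component of gene values held 25.4% of their variance and followed the array median (R squared 0.952). The part of these shifts in the day 7 calls was not tested beyond quantile normalization. All 11 proximal tubule, 6 loop and distal tubule and 4 collecting duct markers measured lay above the median gene, against 1 of 7 liver and 0 of 8 adrenal markers. In LF at day 10, the proximal tubule markers averaged 10.75 to 10.90 per array, against 10.89 to 11.05 at day 0, and 1 of 11 was called lower, where 0.363% of all genes were. The part of this in the fall of Ces1e was not tested. In F minus L, where 7.03% of all genes were called, 2 of the 11 were called higher and 1 lower, with a median of -0.08. In whole kidney RNA, fewer cells of a type and less RNA per cell cannot be told apart.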

How the data were processed

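Exon arrays, 1 per sample, measured kidney RNA of male rats, and the labels' strain and day set the groups of the 48 arrays. Those labels call the 4 samples of a group biological replicates without saying how many rats an array holds, so the p-values cover array-to-array spread alone. The authors deposited 1 log2 intensity per probe set and array, from RMA, per the submitters' processing notes (RMA and limma, no version stated). The sources used here give neither settings nor a detection filter. The array medians of the 92401 deposited probe sets differed (6.03 to 6.61), and no further scaling was applied.

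Gene symbols of probe sets came from the platform annotation, with older symbols updated through the GRCr8 gene table (6113 symbols current, 1876 updated, 27 kept). Of the probe sets 85406 had 1 symbol, 1803 several and 5192 none; the last 2 kinds were left out of gene values. A gene value is the Tukey median polish of its probe sets. Gene values of 7997 genes were fitted with limma (version 3.58.1, R 4.3.3) in a model with 12 group means and eBayes. P-values were adjusted by Benjamini-Hochberg over all genes of a comparison, and genes with an adjusted p under 0.05 were called. Single probe sets were fitted the same way over 92401, and diffSplice tested unequal change within a gene. The interaction is an F test of 6 contrasts. The gene fit recovered known changes in simulated data with independent noise. That simulation held no array effect shared by genes, and only 1 group was changed in it. Its changes were wider than the falls of Rdh16 and Cryz and than the day 7 fall of Ces1e in LF (-0.81). It does not bear on changes of their size.

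The 5 genes and the lists of related genes and markers were chosen with earlier results of these data known, so strain differences of the 5 genes carry no test. Named genes beside them are the nearest measured neighbours, the 3 most alike over group means and members of each list picked for F minus L. Those list members had the largest F minus L differences in size over the mean of days, so they are the extremes of their lists. Motif counts used exact matches on both strands of RefSeq windows. Figures were drawn with matplotlib 3.10.9.

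The replicate number was taken to pair arrays through the labels, since arrays of 1 number have file names with a common beginning. Array deviations from their group means had a mean correlation of 0.0948 for 264 pairs of equal number (lowest -0.301) and -0.0316 for 792 other pairs. The main model omits the number, and a blocked fit was an alternative. Other alternatives were quantile normalization, the mean of probe sets, leaving out the dimmest 33.3% of genes or the dimmer probe sets, the compared groups alone and leaving out each array. Leaving strain LF out of the mean was added after seeing the data.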

Additional observations from a re-analysis of the deposited data

Results flagged for a closer look

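In 5 of the 60 groups of 4 arrays (12 for each of 5 genes) 1 array stood far from the other 3, and chance gives about 1 in 20 groups. Acsm5 read 5.22 in F day 0 replicate 3, with the others at 5.65 to 5.68, and 8.16 in L day 10 replicate 4, with the others at 7.85 to 7.89. Ces1e read 7.75 in L day 10 replicate 3, below 8.38 to 8.49, and 7.69 in LF day 10 replicate 1, above 7.15 to 7.23. Abcb10 read 6.44 in F day 7 replicate 4, with the others at 6.71 to 6.76. Without L day 10 replicate 3, the day 10 change of Ces1e in LF minus that in L was -1.72, and without LF day 10 replicate 1 the change in LF was -1.33.

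The response of Ces1e differed between strains in the main model. The interaction of strain and day had a limma adjusted p of 0.0382, a call that passed in 30 of the 48 fits that left out 1 array. The day 10 change in LF minus that in L was -1.55 on the log2 scale (adjusted p = 0.00778). FL minus LF was short of the test (1.26, adjusted p = 0.0637).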

How the results depend on the processing

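No strain difference of the 5 genes reversed under any alternative. Using only probe sets at or above the median level, F minus L of Ces1e shrank to -0.92, -0.88 and -1.18 at days 0, 7 and 10 and -0.99 as their mean, while Acsm5 grew to -2.89 at day 10 and -2.56 as a mean and Rdh16 to -1.98 at day 7. The plain mean of probe sets gave -0.94 for Rdh16 at day 0. No call of Ces1e or Rdh16 was lost under the replicate block, quantile normalization, the mean of probe sets, the filter on dim genes or the compared groups alone. Leaving strain LF out of the mean ended both calls of Cryz (-0.14 and -0.18), and left 67 genes called at day 7 and 76 at day 10, against 398 and 184.

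Counts of called genes moved by over 1.5 times as follows. With the replicate block they were 894 for day 7 as a mean of strains (398 without it), 19 in FL and 683 in LF at day 7, 52 in F, 1 in L and 4 in FL at day 10, and 28 for the interaction. Of the 5 genes, the block changed the call of Cryz in LF at day 7 only. After quantile normalization they were 603 and 365 for days 7 and 10 as means, 2 for day 10 minus day 7, 122 in F and 340 in LF at day 7, at day 10 75 for F, 3 for L, 8 for FL and 145 for LF, and 32 for the interaction. The mean of probe sets gave 12 for day 10 minus day 7 and 6 in FL at day 10, and the filter on dim genes 12 and 4. The compared groups alone gave 2 in FL and 66 in LF at day 7, and 16 in F and 1 in FL at day 10.

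Leaving out 1 array gave 270 to 674 calls for day 7 and 137 to 220 for day 10 as means, at day 7 35 to 48 for F, 0 for L, 8 to 15 for FL and 60 to 294 for LF, and at day 10 7 to 28, 0 to 2, 1 to 9 and 40 to 77, with 9 to 24 for the interaction. The day 7 change of Rdh16 in F ranged from -0.73 to -0.58 and that of Ces1e in LF from -0.89 to -0.69. Adjusted p of the Ces1e interaction ranged from 0.0086 to 0.115. Signal near background limits the dim probe sets, and no detection call was given in the sources used here.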
